A study of Mus musculus with 34 samples.

Results

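Of 13616 CpG islands scored on every array, 4053 were constitutively unmethylated, that is, below 0 on all 16 arrays of adult tissue. Of these, 326 were above 0.75 in the pancreatic cell lines Min6 or aTC, and they are described here. An island is a run of at least 3 array probes with gaps of at most 500 bases. Its level is the island methylation score (IMS), the mean Z-score of its probes. The Z-score places the log ratio of antibody-bound over input DNA among all probes of the same array, so it is relative and not a percentage of methylated CpGs. The values that chose the islands, from the adult arrays, Min6 and aTC, are given below as a description with no test.

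DNA was enriched with an antibody against 5-methylcytidine (mDIP) and hybridized together with input DNA on 34 mouse CpG island arrays. The 16 adult arrays hold colon, pancreas, brain, kidney, liver, lung, muscle and spleen of 3-month-old mice, with 2 arrays per tissue. Whole embryos of 8.5, 9.5, 10.5, 11.5 and 12.5 dpc are on 1 array each. Undifferentiated ES cells are the lines EB5, J1 and TT2. Differentiated ES cells are embryoid bodies, retinoic acid treated cells, 2 arrays of endoderm and 1 of mesoderm. Endoderm and mesoderm were sorted from a reporter line made from EB5, and embryoid bodies came from TT2. The parent line of the retinoic acid treated cells is TT2 by the labels and J1 by the study's methods. The 2 teratomas grew in immunodeficient mice and come from J1 by the labels, while the methods name another line. Min6 (a β cell line from an insulinoma), aTC (an α cell line from a glucagonoma) and β cells sorted from pancreatic tissue are on 1 array each. Both tumour lines came from transgenic mice in which a viral T antigen was expressed in islet cells. Each line is a single culture, so none of its values has a replicate.

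The arrays came from 23 slides and were read with 4 versions of the scanner software. Min6 and aTC shared a slide, and with the β cells they shared a scan day and a software version, which also read the 8.5 dpc embryo, TT2 and the retinoic acid treated cells. The J1 array stands apart, since its deposited processed values correlated with its scanner values at r = 0.184 across islands, against 0.948 to 0.995 on the other 33 arrays. Scanner values were used throughout. Embryo, ES cell and teratoma labels name no separate animals or cultures within an array, so p-values measure only the spread between arrays. That spread was pooled over adult, embryo, ES cell and teratoma arrays, of which 16 are adult, and not taken from the groups compared alone. The differentiated arrays mix cell types and parent lines.

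CpG islands are stretches of CpG-rich DNA that cover many gene starts and remain free of methylation in most normal cells. Many islands at developmental regulators carry polycomb marks instead. In tumours and long-term cultures such islands are known to acquire DNA methylation. In the islet, β cells make insulin and α cells make glucagon, and each depends on its own set of transcription factors.

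The promoters of 6 member genes are printed as examples and do not stand for the CpG content of all members. They were taken in order of the mean IMS over both lines, with 4 above 0.75 in both lines, followed by Slit3 for Min6 and Ltk for aTC. Each is a gene with 1 start in the RefSeq table whose member island has probes on both sides of the start that the array annotation gives. The 250 bases before the RefSeq start are printed 5′ to 3′ with each CG in capitals. The sequences come from build GRCm38.p6 and the island positions below from mm9, so the 2 sets of coordinates are not on the same scale.
Dmrta2 (GRCm38.p6, chr4:109977775-109978024, plus strand): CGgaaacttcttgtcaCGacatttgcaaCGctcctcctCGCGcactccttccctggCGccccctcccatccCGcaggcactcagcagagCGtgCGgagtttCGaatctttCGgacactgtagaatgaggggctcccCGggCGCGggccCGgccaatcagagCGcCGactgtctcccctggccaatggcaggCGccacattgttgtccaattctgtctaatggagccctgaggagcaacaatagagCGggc
Tlx3 (GRCm38.p6, chr11:33203589-33203838, minus strand): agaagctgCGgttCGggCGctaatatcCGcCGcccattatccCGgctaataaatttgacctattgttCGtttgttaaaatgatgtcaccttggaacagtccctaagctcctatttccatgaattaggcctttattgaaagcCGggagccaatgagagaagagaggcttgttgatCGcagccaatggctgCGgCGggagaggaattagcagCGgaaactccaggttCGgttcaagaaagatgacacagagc
Zic1 (GRCm38.p6, chr9:91365769-91366018, minus strand): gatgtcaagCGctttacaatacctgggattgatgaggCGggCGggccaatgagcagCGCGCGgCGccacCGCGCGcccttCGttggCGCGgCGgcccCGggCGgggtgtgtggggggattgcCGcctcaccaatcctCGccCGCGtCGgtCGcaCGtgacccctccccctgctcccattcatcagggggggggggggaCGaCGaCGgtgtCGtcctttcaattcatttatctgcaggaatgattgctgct
Barhl2 (GRCm38.p6, chr5:106458167-106458416, minus strand): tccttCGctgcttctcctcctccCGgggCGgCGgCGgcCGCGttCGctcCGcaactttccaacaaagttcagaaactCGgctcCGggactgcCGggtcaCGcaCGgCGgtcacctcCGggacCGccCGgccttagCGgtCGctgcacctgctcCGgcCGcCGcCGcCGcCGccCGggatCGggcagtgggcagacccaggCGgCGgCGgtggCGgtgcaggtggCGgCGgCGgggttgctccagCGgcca
Slit3 (GRCm38.p6, chr11:35121206-35121455, plus strand): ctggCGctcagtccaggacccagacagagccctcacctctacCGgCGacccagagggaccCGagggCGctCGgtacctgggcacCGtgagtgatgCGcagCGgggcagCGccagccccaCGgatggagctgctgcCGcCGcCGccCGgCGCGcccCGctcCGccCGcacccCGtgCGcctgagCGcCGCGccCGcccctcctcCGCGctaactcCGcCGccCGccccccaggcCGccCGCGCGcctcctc
Ltk (GRCm38.p6, chr2:119758526-119758775, minus strand): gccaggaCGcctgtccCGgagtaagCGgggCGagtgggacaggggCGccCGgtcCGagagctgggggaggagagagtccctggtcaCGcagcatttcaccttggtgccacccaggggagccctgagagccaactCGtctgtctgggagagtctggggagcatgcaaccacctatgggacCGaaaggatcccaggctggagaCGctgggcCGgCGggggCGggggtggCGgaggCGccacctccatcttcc

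Barhl2 holds 36 CG dinucleotides in the 250 bases shown, Slit3 35, Zic1 27, Dmrta2 19, Ltk 16 and Tlx3 13. Counted over the whole 300 bases of the table, which run 50 bases past the start, they hold 18 to 42, against a median of 7 over the promoters of 27025 genes and of 23 over the matched genes of the other constitutively unmethylated islands. Only 76.2% of the member genes with a current symbol have a promoter in that table, so a check of CpG content over all of them is void.

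Of the 326 members, 112 (34.4%) were above 0.75 in both lines, 67 (20.6%) in Min6 and not in aTC, and 147 (45.1%) in aTC and not in Min6. The median IMS over all members was 0.798 in Min6 and 1.02 in aTC, and aTC had the higher score at 196 members and Min6 at 130. The lines differed by over 1 at 104 members. The other 3727 constitutively unmethylated islands had a median of -0.688 in Min6 and -0.756 in aTC.

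**Figure D1:**
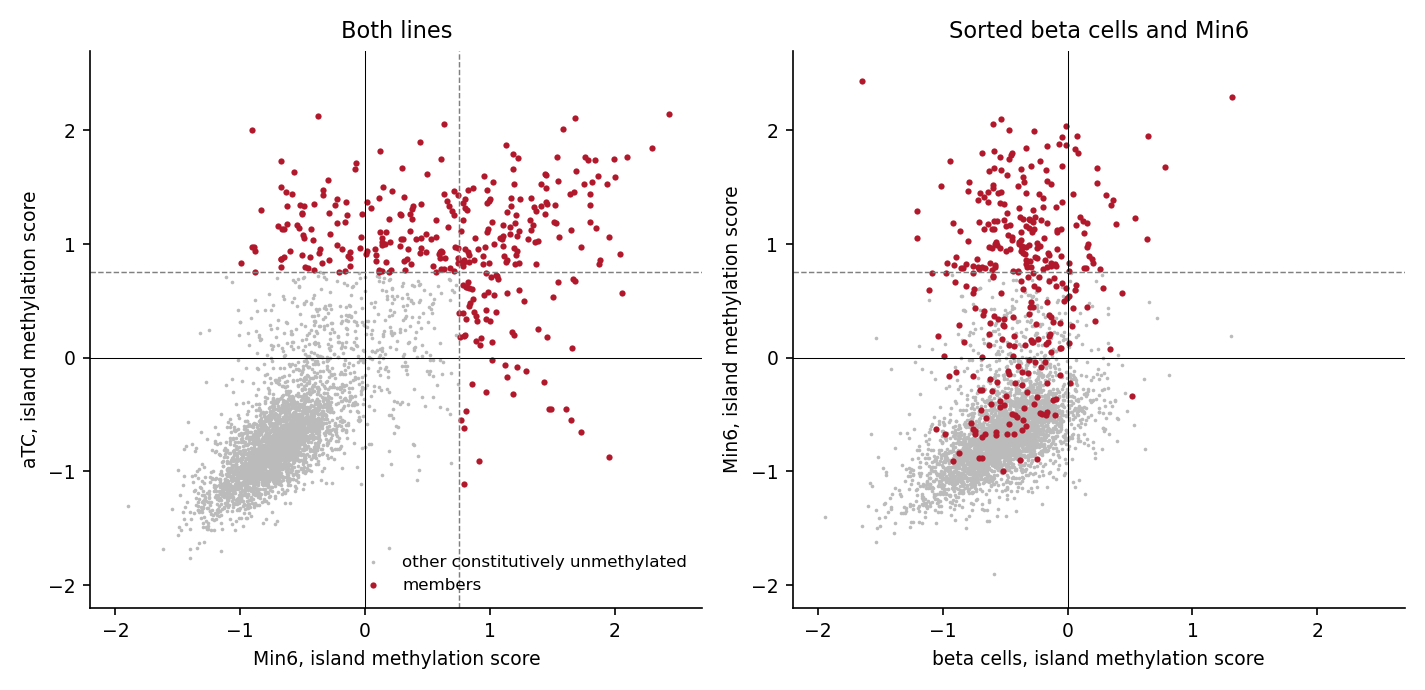
IMS of the 4053 constitutively unmethylated islands in aTC against Min6 (left) and in Min6 against sorted β cells (right), with a point per island and dashed lines at 0.75. Members (red) fill 3 corners of the left panel by the rule, while on the right 283 of the 326 members lie below 0 in β cells.

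Islands chosen on 1 line can be read on the other, whose array then had no part in the choice. Of the 179 islands above 0.75 in Min6, 112 (62.6%) were above 0.75 in aTC, where 6.39% of all constitutively unmethylated islands are. Of the 259 above 0.75 in aTC, 43.2% were above 0.75 in Min6, against 4.42%. Islands chosen on Min6 had a mean of 0.861 in aTC, and islands not chosen had -0.608. Islands chosen on aTC had a mean of 0.572 in Min6, and islands not chosen had -0.62. At the far end, 28 islands chosen on aTC were below -0.5 in Min6, and 7 chosen on Min6 were below -0.5 in aTC. Both lines were on 1 slide, and its part was not tested. The adult criterion can be split likewise. With the rule on the first adult array of each tissue 526 islands were chosen, and on the 8 other adult arrays 92.7% of their scores were below 0, against 94.4% for the islands not chosen. With the rule on the second arrays the shares were 96% and 97.3%, over 424 islands.

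The threshold of 0.75 cuts through a continuous range. On the higher of both lines, the members just inside it had 0.752, at an island on chr2:35111777-35112402 that carries no gene name, and 0.753 at Phlda2. The islands just outside had 0.75 at Cxcl12, a chemokine gene, and 0.749 at Kctd1. Within 0.25 above the threshold lay 113 members. The adult criterion acts likewise, with a highest adult score of -0.00102 at Map7, a member, and of 0.00012 at Otp, which scored 1.13 in Min6 and 1.28 in aTC and is left out.

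High scores were spread over the probes of the members. The rule chose these islands by their mean over probes on the same arrays, so high shares are partly set by the choice. At the 112 islands above 0.75 in both lines, 80% of 1224 probes were above 0.75 in Min6 and 81.7% in aTC. Every probe was above 0 at 98 of them in Min6 and at 105 in aTC. The rule also sets a high ratio of bound over input DNA, and the shift lay in the bound channel. Relative to the other 4 arrays of the same software version, the input signal of members shifted by a median of 0.003 (log2) in Min6 and -0.006 in aTC, and the bound signal by 1.56 and 2.02. At the other constitutively unmethylated islands the bound signal shifted by -0.40 and -0.67.

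Members were larger than the rest. They had a median of 9 probes and spanned a median of 1020 bases, against 7 probes and 796 bases for the other constitutively unmethylated islands. The 112 islands above in both lines had a median of 11 probes and 1260 bases. Of constitutively unmethylated islands with 3 or 4 probes, 34 of 643 (5.29%) were members. That share was 6.03% at 5 to 9 probes, 10.7% at 10 to 14 and 25.7% (65 of 253) at 15 or more. Only 14 members (4.29%) had the minimum of 3 probes, against 4.99% of the others.

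By the array annotation, 205 members (62.9%) lay inside a gene, 54 (16.6%) in a promoter, 4 (1.23%) in a promoter shared by divergent genes, 8 (2.45%) downstream of a gene and 55 (16.9%) in no class. The same shares among the other constitutively unmethylated islands were 64%, 21.1%, 4.29%, 2.07% and 8.53%. Over all 13616 islands they were 62.3%, 18.1%, 3.03%, 3.14% and 13.4%. Islands in no class were thus more frequent among members than in either set, and divergent promoters less. Both contrasts were smaller against all islands. This was a count and not a test. Of 272 members with a distance to a gene start, 163 (59.9%) had probes on both sides of it, against 79.2% of the other islands. A further 26 (9.56%) lay wholly 2000 bases or more inside the gene, against 4.51%.

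Member probes far past the gene start had higher scores than those near it in both lines. Each distance holds probes of different islands, so this is no course within an island. Probes in the 500 bases before the start had a mean Z of 0.505 in Min6 and 0.842 in aTC, and those 2000 to 5000 bases past it 1.08 and 1.16. Those 1000 to 5000 bases before the start had 0.678 and 0.76. The 500 bases before the start hold 165 member islands and the farthest distance 35. In β cells the same probes had -0.298 and -0.414, and in adult tissue -0.32 and -0.415. Probes of the other islands had -0.683 and -0.327 in Min6 and -0.73 and -0.278 in aTC at these distances. They were below 0 at each distance.

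Members lay on every autosome, from 6 on chromosome 16 to 34 on chromosome 2. None was on X, where none of the 4053 constitutively unmethylated islands lie. They named 264 genes, of which 8 held 2 member islands each, among them Dmbx1, Lrrtm1, Nr2f1, Six3, Skor1, Slc32a1 and Sox17. Member genes had 24 further constitutively unmethylated islands, and 14 of these (58.3%) were above 0 in a line, against 10.5% of those at other genes.

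Genes were grouped by lists of gene names, and each group is given as the share of its constitutively unmethylated islands that are members, beside 8.04% over all of them. Homeobox genes, which encode DNA-binding regulators of body plan and cell identity, had the highest share, with 38 of 80 (47.5%). Their 38 islands lay at 35 genes, 19 above 0.75 in both lines, 8 in Min6 and 11 in aTC. Of the other developmental transcription factors 33 of 100 (33%) were members, with 21 above in both lines. Together these 2 groups held 71 members (21.8%), against 2.9% of the other constitutively unmethylated islands. The share was 35.7% of the islands above in both lines, 22.4% of those in Min6 and 10.9% of those in aTC. The groups' islands are also large. With 3 to 9 probes 27.1% of their islands were members, against 5.26% of islands of other genes, and with 10 or more probes 51.1% against 10.7%.

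Among homeobox members, Tlx3, a regulator of neuron identity, scored 1.86 in Min6 and 1.6 in aTC. Barhl2, a neural factor, scored 1.69 and 1.64. Dmbx1 had 2 member islands, at 1.94 and 1.53 and at 1.88 and 0.823. Some homeobox members differed between the lines. Shox2 scored -0.3 in Min6 and 1.56 in aTC, Cdx2, an intestinal regulator, 0.107 and 1.4, and Hmx1 1.13 and -0.166. Among the other developmental factors, Zic1 scored 1.82 and 1.54, Tbr1, a factor of cortical neurons, 1.8 and 1.35, and Twist1, a mesodermal factor, 1.64 and 1.44.

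Of the ion channels and transmitter receptors, 21 of 46 islands (45.7%) were members, 11 of them in aTC and not in Min6. Kcnq5, a potassium channel, scored 0.629 in Min6 and 2.06 in aTC, Kcnc2 0.611 and 1.75, and Adrb1, an adrenergic receptor, 0.955 and 1.6. Secreted signals and receptors had 17 members of 74 (23%), among them Slit3 with 2.06 and 0.57 and Rspo2, a Wnt agonist, with -0.627 and 1.34. Of the cell adhesion and matrix genes 10 of 37 (27%) were members, 8 of them in aTC and not in Min6 and 0 in both. Pcdh7, a protocadherin, scored 0.308 and 1.42, and Reln, a matrix protein of the brain, 0.375 and 1.22.

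At the other end, 2 of 204 islands at housekeeping genes (0.98%) and 2 of 81 at zinc finger genes named Zfp (2.47%) were members. The island at Rpl19, a ribosomal protein gene, is shared with Cacnb1, a channel subunit. Of the germline genes 2 of 12 islands (16.7%) were members, at Dmrt2 and Dmrta2. Both are on that list by the name of their family and act in embryonic development, and none of the other 10 islands was a member. Solute carriers had 6 of 78 (7.69%), close to the share over all islands.

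**Figure D2:**
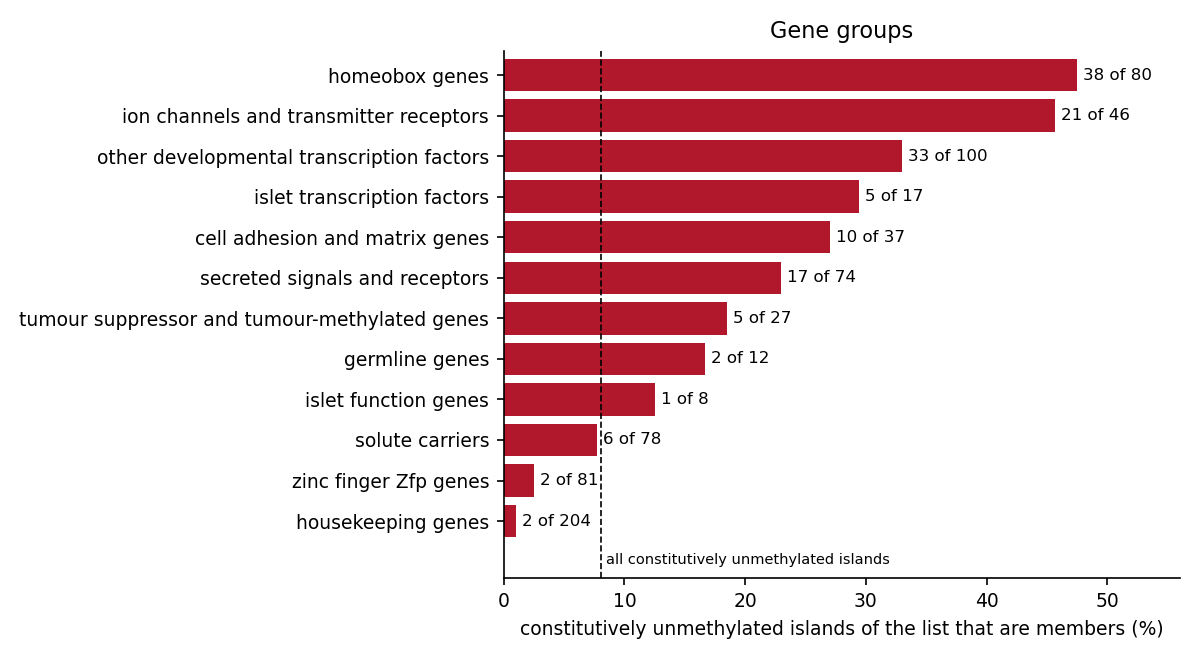
Share of the constitutively unmethylated islands of each gene list that are members (bars, in percent), with counts at the bar ends and a dashed line at the 8.04% over all 4053. Homeobox genes and ion channels reach 47.5% and 45.7%, and housekeeping genes 0.98%. An island can be on more than 1 list.

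Of the islet transcription factors, 5 of 17 islands (29.4%) at 4 genes were members. Sox17, an endodermal factor, had an island of 18 probes inside the gene that scored 1.2 in Min6 and 1.18 in aTC, and a second at 1.37 and 0.825. Sox9, a factor of pancreatic progenitors and ducts, scored 1.46 in Min6 and 0.182 in aTC. Ptf1a, the regulator of acinar cells, scored -0.119 in Min6 and 0.929 in aTC. In β cells these 5 islands were all below 0, with a median of -0.536. Among genes of islet function, 1 of 8 islands was a member, at Gad2, which makes GABA, with 0.407 in Min6, 1.05 in aTC and -0.671 in β cells.

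Of the tumour suppressor and tumour-methylated genes 5 of 27 islands (18.5%) were members. Cdkn2a, which encodes inhibitors of the cell cycle and of p53 degradation, had the highest scores and is described below. Wt1, a zinc finger factor lost in some kidney tumours, scored 1.32 in Min6 and 1.21 in aTC. Igfbp3, which binds insulin-like growth factors, scored 0.76 and 0.842. Pgr, the progesterone receptor, scored 0.64 and 0.88. Klf4, a factor of epithelial differentiation, scored 1.18 and -0.323. In β cells Wt1 was at -0.392 and Igfbp3 at -0.399, whereas Pgr and Klf4 were slightly above 0, at 0.0683 and 0.158.

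The highest members over both lines lay far above all adult arrays. Cdkn2a came first. Its island has 3 probes at mm9 chr4:88922488-88922864, from 5254 to 5581 bases past the start that the annotation gives, inside the gene. It scored 2.44 in Min6 and 2.14 in aTC, with adult arrays from -1.47 to -0.172. In β cells it scored -1.65, the lowest of all members. The bound signal was shifted by 4.33 (log2) in Min6 and 3.98 in aTC, and the input signal by 0.105 and 0.0486. Grin1, a subunit of the NMDA glutamate receptor, has an island of 4 probes at chr2:25160552-25160988, 13533 bases or more past the start. It scored 2.3 in Min6 and 1.85 in aTC, with adult arrays from -1.14 to -0.154. Tbx18, a mesodermal T-box factor, has 13 probes at chr9:87624478-87625944 just past the start and scored 2.1 and 1.76, with adult arrays from -0.579 to -0.205. Sp8, a factor of limb and brain, scored 1.59 and 2.01 at chr12:120086946-120088319. Dmrta2, a neural factor, scored 2 and 1.59 over its promoter, at chr4:109649844-109651253. Cbln1, a synaptic organizer, scored 1.84 and 1.74, Vwc2, a secreted BMP antagonist, 1.76 and 1.77, and Gab1, an adaptor of receptor kinases, 1.78 and 1.74. An island without a gene on chr2:163029056-163030441, with 14 probes, scored 1.68 and 2.11, and another on chr19:37308590-37308878, with 3 probes, 2 and 1.75. Of these 10 islands, Grin1 and Cbln1 were above 0 in β cells.

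Other islands split the lines. Krt19, a keratin of duct cells, scored 1.95 in Min6 and -0.874 in aTC, and Tfap2a, a factor of neural crest, 1.73 and -0.651. Snapc5, a subunit of the complex that transcribes small nuclear RNA genes, scored 1.65 and -0.55 over 3 probes, and Klf15 1.61 and -0.452 over 14. In the other direction, Ptger4, a prostaglandin receptor, scored -0.381 in Min6 and 2.12 in aTC. Pcdh10, a protocadherin, scored -0.675 and 1.73 over 17 probes, and Astn2, an astrotactin, -0.572 and 1.63. Of the islands without a gene, chr8:37520758-37521511 scored 1.49 in Min6 and -0.452 in aTC. The island at chr4:36898391-36898715 scored -0.905 and 2, and that at chr10:36226802-36227536 -0.677 and 1.5. At Ptger4, Pcdh10 and Astn2 the score in Min6 lay within the range of the adult arrays. At Krt19, Tfap2a, Snapc5 and Klf15 the score in aTC did.

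**Figure D3:**
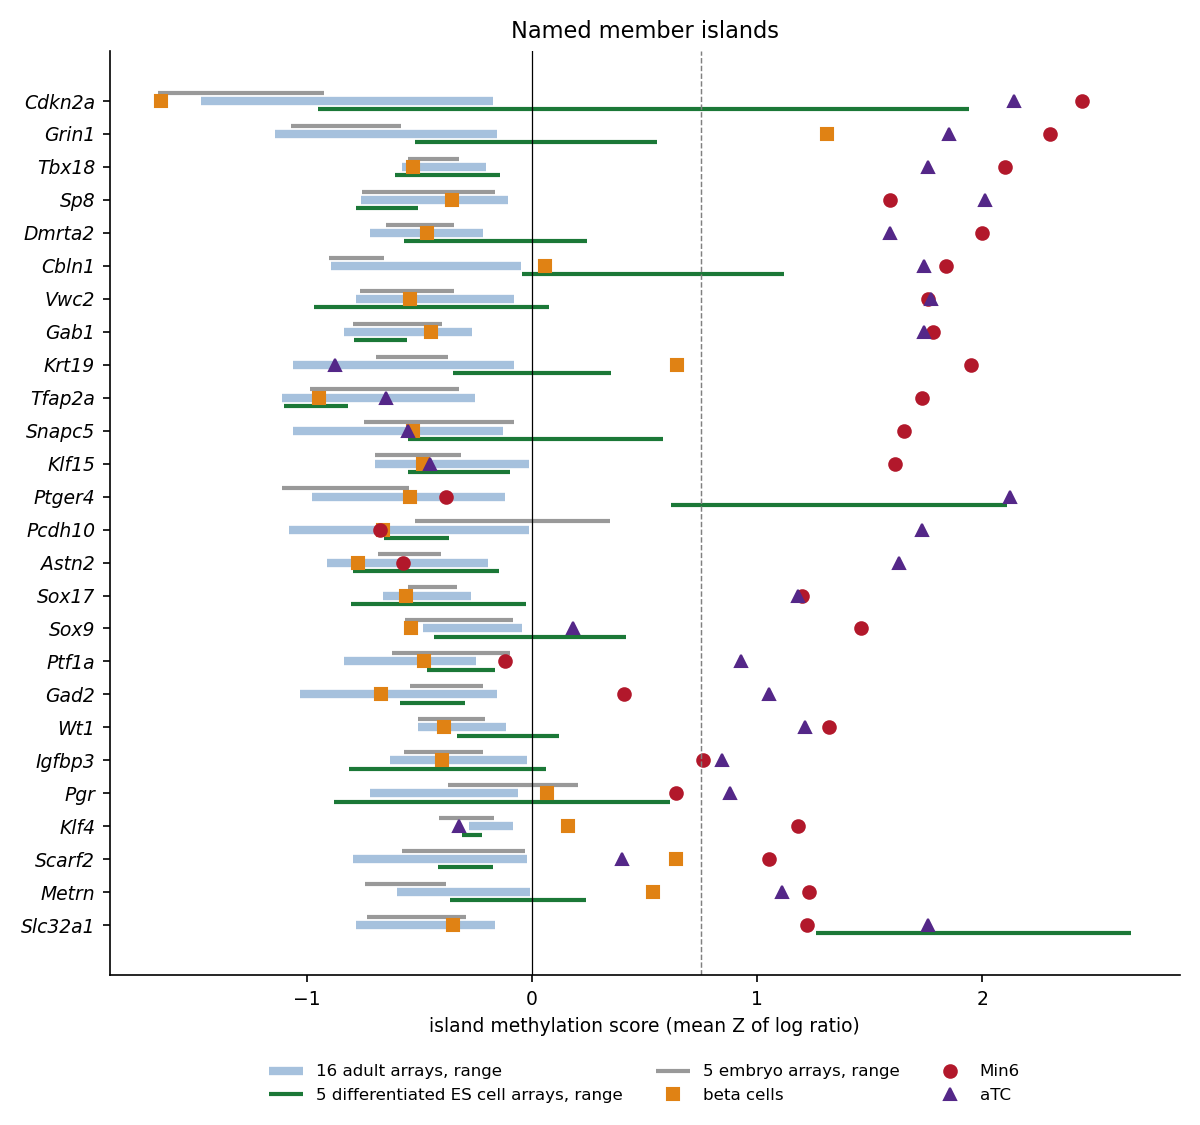
IMS of 26 named member islands, 1 row each, as ranges over 16 adult arrays (blue), 5 embryo arrays (grey) and 5 differentiated ES cell arrays (green) and as single arrays of β cells (squares), Min6 (circles) and aTC (triangles). The adult ranges end below 0 by the rule, Grin1 is the sole row with β cells above 0.75, and at Slc32a1 all 5 differentiated arrays are above it.

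Sorted β cells, the normal counterpart of Min6, did not share the high scores. Their array had no part in the rule, and 283 members (86.8%) were below 0 there, with a mean IMS of -0.361 against -0.512 for the other constitutively unmethylated islands. Whole pancreas, whose arrays the rule held below 0, had -0.44 and -0.465, against -0.413 and -0.505 for the other islands. Above 0.75 were 2 members (0.613%), against 4 (0.0987%) of all constitutively unmethylated islands. They were Grin1, at 1.31, and an island on chr17:10528237-10528606 without a gene, at 0.782. Next came Krt19 at 0.642, Scarf2, a scavenger receptor, at 0.638 and Metrn, a neurotrophic factor, at 0.538. In all, 281 members were lower in β cells than in both lines. Members lay above 0 in β cells at 13.2%, the others at 5.1%. This is 1 array, so the difference has no error.

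**Figure D4:**
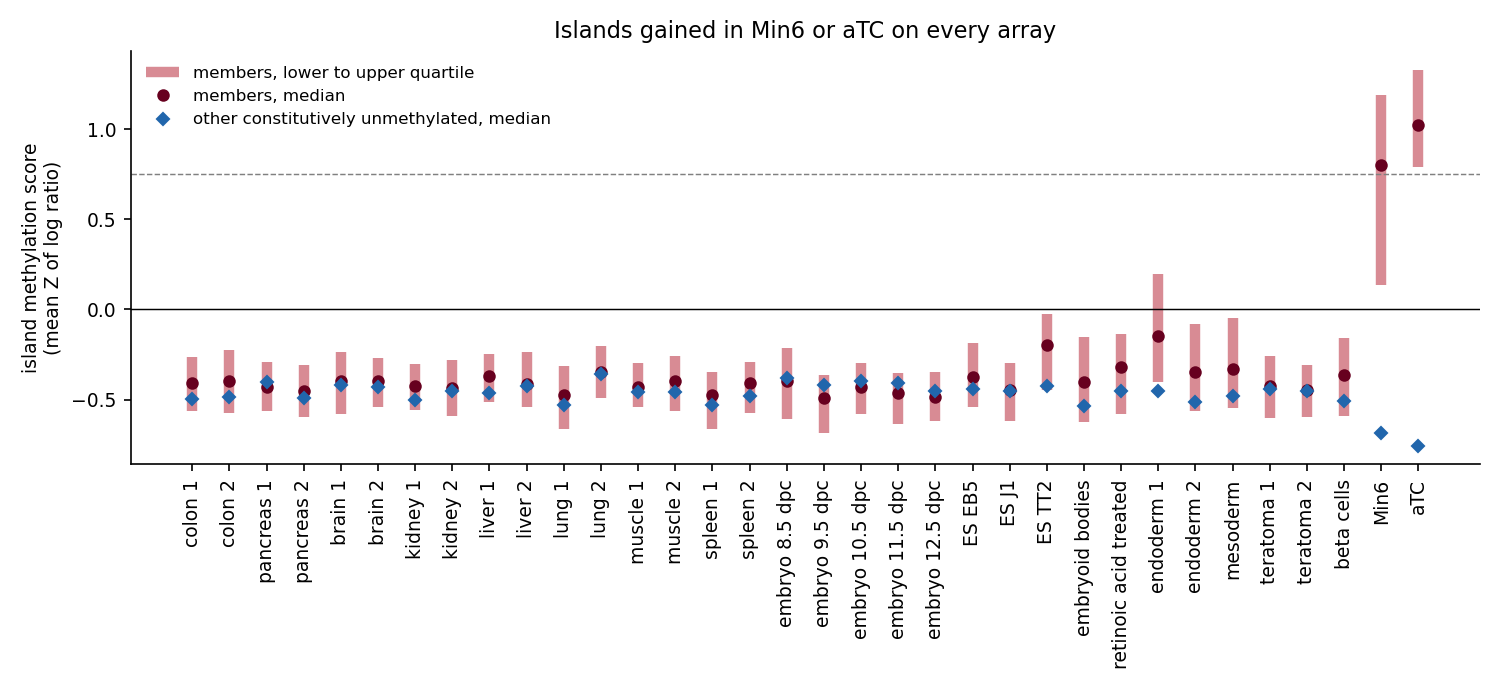
IMS of the 326 members on each of the 34 arrays as the median (dot) and the lower to upper quartile (bar), beside the median of the other 3727 constitutively unmethylated islands (diamond). The dashed line marks 0.75. Min6 and aTC stand alone at medians of 0.798 and 1.02, and endoderm 1 is the highest of the rest at -0.145.

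In embryos the mean IMS of members was -0.477 ± 0.0344 (SD, n = 5 arrays), against -0.419 ± 0.0229 for the other constitutively unmethylated islands, and members were lower on all 5 arrays. Teratomas had -0.434 and -0.452. Of the members 1 was above 0.75 in the 9.5 dpc embryo and 0 in the others, where 0.0493% of all constitutively unmethylated islands are at 8.5, 9.5 and 12.5 dpc and 0.0247% at 10.5 dpc. Over all embryos this share was 0.148%. In teratomas 1 member was above 0.75, on the second array, against 0.148% of all constitutively unmethylated islands on either array, 0.074% on the first and 0.0987% on the second. Undifferentiated ES cells spread more, with -0.363 in EB5, -0.469 in J1 and -0.228 in TT2. Above 0.75 were 3 members in EB5, 3 in TT2 and 0 in J1, where 0.123%, 0.271% and 0% of all constitutively unmethylated islands are, and 5 members on any of the 3, against 0.37%. Differentiated ES cells had -0.315 in embryoid bodies, -0.289 with retinoic acid, -0.0549 and -0.245 in endoderm and -0.264 in mesoderm. TT2 thus lay above all of these but endoderm 1. The excess of members over the other islands was 0.243 ± 0.0784 (SD, n = 5) in differentiated cells and -0.0577 ± 0.0283 (n = 5) in embryos. The ranges, from 0.173 to 0.375 and from -0.0935 to -0.0285, did not overlap. In undifferentiated cells the excess was 0.108 ± 0.116 (n = 3), with 0.0958 in EB5, -0.00142 in J1 and 0.23 in TT2, so TT2 lay within the range of differentiated cells.

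Above 0.75 were 17 members in embryoid bodies, 10 with retinoic acid, 26 and 22 in endoderm and 14 in mesoderm. The shares of all constitutively unmethylated islands there were 1.41%, 0.469%, 1.88%, 1.51% and 1.26%. On at least 1 of these arrays 35 members (10.7%) were above 0.75, where 2.96% of all constitutively unmethylated islands are. These 35 are 29.2% of the 120 islands gained in differentiated ES cells. They were 16 of the 112 islands above in both lines, 7 of the 67 in Min6 and 12 of the 147 in aTC. Of the 35, 9 lay at homeobox or other developmental factors. On no array but those of the lines were 289 members (88.7%) above 0.75, with the 16 adult arrays below 0 by the rule. Of the other constitutively unmethylated islands 2.28% passed 0.75 on at least 1 differentiated array, against 10.7% of members. On undifferentiated arrays these shares were 0.268% and 1.53%.

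**Figure D5:**
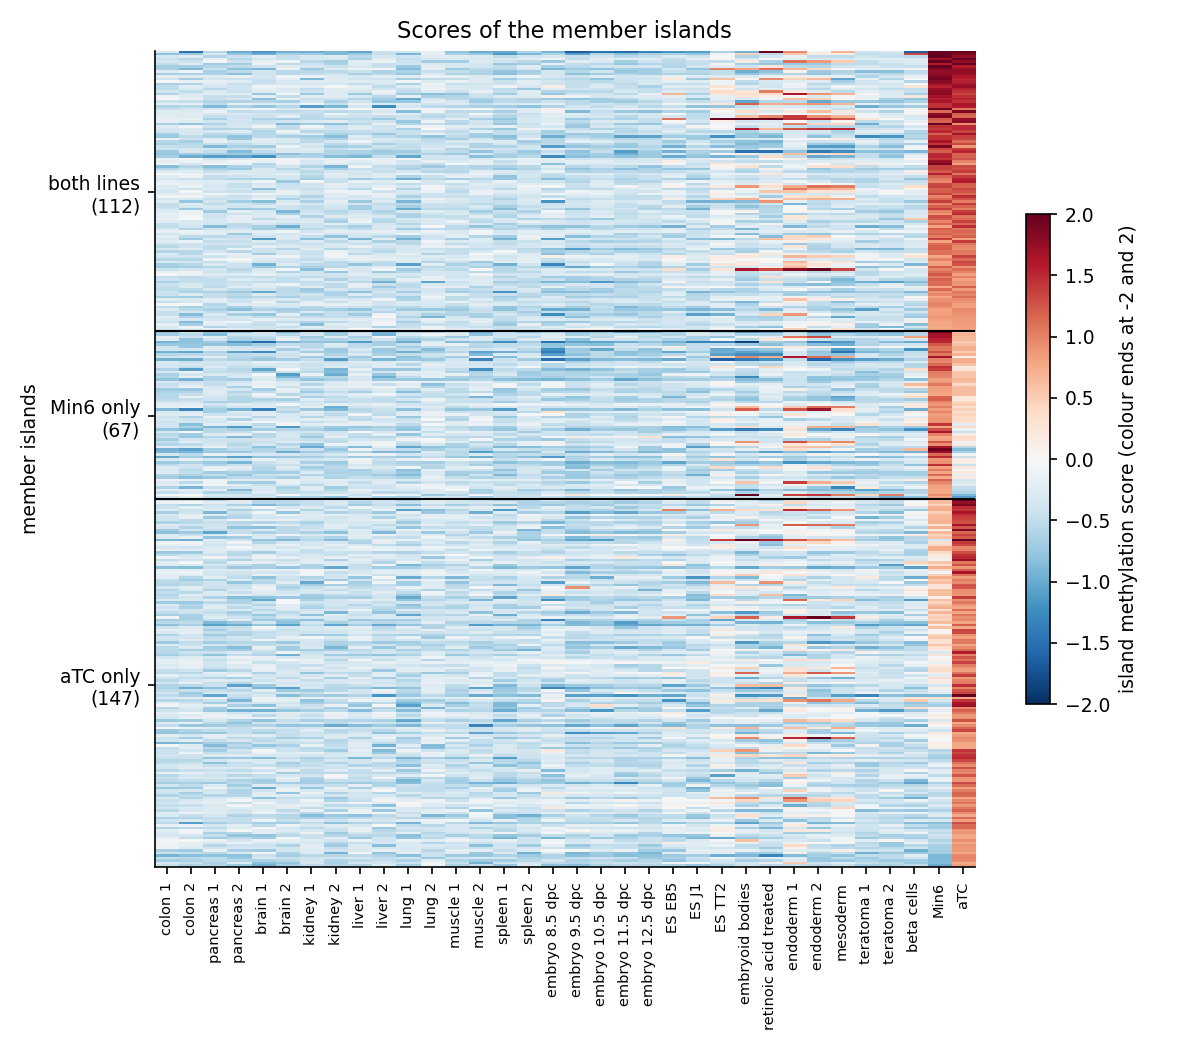
IMS of all 326 members (rows, grouped by the line above 0.75 and ordered by the mean over both lines) on the 34 arrays (columns), from blue at -2 to red at 2. Outside Min6 and aTC, endoderm 1 has the most scores above 0, at 125 members, and 35 members pass 0.75 on a differentiated array.

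Differences between groups outside the rule were tested with limma over all 13616 islands. In differentiated ES cells against embryos, 91 members were higher and 7 lower at a Benjamini-Hochberg adjusted p under 0.05. These are 27.9% and 2.15% of members, whereas 12% of all islands were higher and 9.67% lower. The median difference was 0.135 over members and -0.0392 over all islands. Among the other constitutively unmethylated islands 6.09% were higher and 11.1% lower. Of the 112 islands above in both lines 39 were higher, of the 67 in Min6 16 and of the 147 in aTC 36. The count of 98 fell to 28 with the scan day as a block, to 28 with the software version and to 3 with the slide. Over all islands the count was 2954, and it fell to 365, 491 and 94. Within the software version that read both groups, the single pair of arrays (retinoic acid minus 8.5 dpc embryo) differed by a mean of 0.143 over members and -0.0587 over the others.

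Slc32a1, the vesicular transporter of GABA and glycine, had the largest difference. Its island of 13 probes at mm9 chr2:158439467-158440727 scored 2.44 in embryoid bodies, 2.66 with retinoic acid, 1.42 and 1.52 in endoderm and 1.26 in mesoderm. The 5 embryos lay between -0.731 and -0.295. EB5 had 1.07, J1 -0.461 and TT2 2.27, so undifferentiated lines spanned both ranges. The difference was 2.4 ± 0.29 (SE), with a limma adjusted p of 8.18e-07, and β cells had -0.353.

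Ptger4 at chr15:5192574-5192871 scored 2.11, 1.64, 1.28, 0.88 and 0.617 on the same 5 arrays, with embryos from -1.11 to -0.548 (difference 2.1 ± 0.261 SE, limma adjusted p = 1.22e-06). Like Slc32a1 it was high in TT2, at 1.4, and unlike it not in Min6. An island without a gene at chr5:120752306-120752782 scored 1.55, 0.668, 1.28, 1.45 and 1.52, with embryos from -0.63 to -0.192 (difference 1.73 ± 0.142 SE, limma adjusted p = 1.95e-09). Cdkn2a was uneven, with -0.952 in embryoid bodies, 1.94 with retinoic acid, 0.938 and -0.0721 in endoderm and 0.683 in mesoderm, and with embryos from -1.66 to -0.926. Its difference of 1.89 ± 0.311 (SE, limma adjusted p = 5.85e-05) fell to 0.593 (adjusted p = 0.677) with the scan day as a block and 0.713 (adjusted p = 0.448) with the slide. This SE uses the pooled spread, whereas the SD was 1.09 over the 5 differentiated arrays and 0.282 over the embryos. Slc32a1, Ptger4 and the island on chromosome 5 were named for their large differences. That their differentiated arrays did not overlap the embryos is thus no separate support. In β cells these islands were below 0. With the slide as a block the adjusted p was 0.0588 at Ptger4 and 0.0601 at the island on chromosome 5.

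Some of the highest members of the lines showed no such difference. Tbx18 differed by 0.0139 ± 0.0908 (SE; limma adjusted p = 0.935), Gab1 by -0.0363 ± 0.0939 (adjusted p = 0.827) and Vwc2 by -0.0528 ± 0.136 (adjusted p = 0.826). Cbln1 was higher in differentiated cells by 1.34 ± 0.234 (limma adjusted p = 0.000124) and Grin1 by 0.912 ± 0.179 (adjusted p = 0.000476). Both lost the call with the slide as a block (adjusted p = 0.0575 and 0.251) and with normexp (0.196 and 0.155), where the differences were 0.46 and 0.484, and Grin1 also with the software version (0.163). Grin1 ranged only from -0.518 to 0.556 on those arrays. Beside the 12% of all islands that were higher and the 9.67% that were lower, 9 of 38 homeobox members were higher and 0 lower, and of the other developmental factors 5 of 33 were higher and 2 lower, which is near the share over all islands. Of the ion channels and transmitter receptors 7 of 21 were higher and 1 lower. The 7 members that were lower include Zic2 (-0.282 ± 0.0881 SE) and Hif3a (-0.452 ± 0.129 SE).

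Undifferentiated ES cells against embryos gave 6 members higher and 1 lower, or 1.84% and 0.307%, against 1.11% and 2.17% of all islands. The 6 were Tfap2e, Slc32a1, Kazald1, Ptger4, Kcnc4 and Col5a1. With the software version as a block 0 members were called in limma, against 8 of all islands. With the day as a block 5 members were called and with the slide 7, each with 1 of the 6 among them. Over all islands these blocks gave 26 and 129. The main count of 7 rose to 21 without J1 and to 12 without the 8.5 dpc embryo. Over all islands the count of 447 rose likewise, to 841 and 530. The count of members fell to 1 without TT2, to 2 without EB5, to 3 without the 9.5 or 10.5 dpc embryo and to 4 without the 11.5 dpc embryo. Over all islands it was 93, 55, 209, 186 and 260. Differentiated against undifferentiated ES cells gave 36 members higher (11%) and 8 lower (2.45%), against 3.77% and 2.18% of all islands. That count of 44 was 22 without J1, 29 without EB5 and 4 with the slide as a block. With the parent line of the labels as a block it was 26. Over all islands the count of 811 was 537, 520, 184 and 567 in that order. Within lines the mean over members ran opposite ways. It was higher than in EB5 by 0.308 and 0.118 in endoderm and by 0.0988 in mesoderm, and differed from TT2 by -0.0877 in embryoid bodies and -0.0612 with retinoic acid. Within software versions the difference was 0.141 in the version that read 3 differentiated and 2 undifferentiated arrays and -0.0612 in that of TT2. Fitted without the other groups, the count of members was 0 and that over all islands 4.

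Teratomas against embryos gave 0 members higher and 1 lower, against 0.191% and 0.0441% of all islands. At an unadjusted p under 0.05 in limma were 21 of the 326 members and 992 of all 13616 islands. By the methods' t-test with Benjamini-Hochberg adjustment the count was 0. The single call was lost without any 1 of the 7 arrays. The lower island was Phlda2, an imprinted gene of placental growth, at chr7:150687585-150688863 with 13 probes. It scored -0.627 and -0.7 in teratomas and from -0.119 to 0.306 in embryos (difference -0.704 ± 0.157 SE, limma adjusted p = 0.0427). In undifferentiated cells it scored -0.854 to -0.494, also lower than in embryos (difference -0.755 ± 0.137 SE, limma adjusted p = 0.00309), a comparison that shares the embryo arrays. That call was lost with the slide, the day or the software version as a block, by the methods' t-test and with normexp. Phlda2 lies just above the threshold in Min6, at 0.753, and at 0.396 in aTC.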

How the data were processed

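All 34 mouse arrays were read from the authors' scanner files. The authors labelled bound DNA with Cy5 and input DNA with Cy3, and their Feature Extraction software (4 versions) subtracted the background from each spot intensity, applied a linear dye normalization and gave the deposited log10 ratio per probe. The authors' deposited table holds processed scores (Z-scores, by the methods adjusted for probe Tm) and served as an alternative. Intensities served for signal checks.

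Control spots, spots marked as outliers and 492 probes without a place were left out. Log ratios were turned into Z-scores within each array and averaged over islands of at least 3 probes, built on the coordinates of the older grids, which name no build. Printed island positions are those of the newest grid, named mm9 by 6 files. Genes and classes come from the annotation columns of 1 file that covers all 97651 probes. Of 10847 gene names, 8510 are current symbols in a RefSeq table and 2078 were matched by synonym. Columns not mapped to a sample numbered 0.

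Samples were grouped by their labels. limma 3.58.1 (lmFit, eBayes; R 4.3.3) was fitted to adult, embryo, undifferentiated, differentiated and teratoma arrays together, with Benjamini-Hochberg adjustment over all 13616 islands. On simulated data with 200 islands changed by 1, it recovered 85.5% for differentiated cells and 84% for undifferentiated cells, each against embryos. It recovered 74.5% for teratomas against embryos and 83% for differentiated against undifferentiated cells. In that order 4.47%, 5.08%, 6.88% and 5.68% of the calls were false. The simulation drew independent noise with 1 spread per island for all groups and no slide, day or software effect. The median difference of members between differentiated cells and embryos was 0.135, so these rates need not hold for the data. Python 3.11.15 was used otherwise.

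Members and gene lists were chosen with earlier results of these data known. One island per gene was named: the 10 highest over both lines, the 5 with the largest difference in each direction between the lines, those on the islet and tumour lists, the 5 highest in β cells, the 5 with the largest difference between differentiated cells and embryos, and those at the threshold. Some genes that this rule picks are not reported here. Genes named within a list or group beyond these were chosen after their values were seen. Input spots had a median of 3.07 to 7.34 times the local background per array, and the number of arrays limits the precision. Alternatives covered thresholds, standardisation, background correction, source of the values, dim probes, island summary, test, scale, batches, parent line and arrays left out.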

Additional observations from a re-analysis of the deposited data

Results flagged for a closer look

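Arrays far from the rest of their group were looked for in the 5 embryo and the 5 differentiated ES cell arrays, over 82 sets of values, where chance gives about 1 in 20. The gap to the nearest array exceeded 0.71 of the group's range in 10. Endoderm 1 had a mean IMS of -0.0549 over members, against -0.315 to -0.245 on the other differentiated arrays. It was also the highest at Astn2 (-0.146, against -0.796 to -0.628). Its software version read no other array, and the part of that in these values was not tested. Retinoic acid treated cells were the highest at Dmrta2 (0.246, against -0.569 to -0.395) and at the island without a gene on chr2:163029056-163030441 (-0.0195, against -0.331 to -0.241).

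The 8.5 dpc embryo was the highest at Ptf1a (-0.0963, against -0.62 to -0.494), at Pgr (0.203, against -0.375 to -0.224) and at an island without a gene on chr4:36898391-36898715 (-0.128, against -1.2 to -0.975), which scored 2 in aTC and -0.905 in Min6. It was the lowest at Kctd1 (-0.564, against -0.26 to -0.184), an island just outside the threshold. It differed from the other embryos in scanner software as well as in age. The 11.5 dpc embryo was the highest at Snapc5, with -0.0805 against -0.747 to -0.629. The 9.5 dpc embryo had 1 member above 0.75, and the other embryos had 0.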

How the results depend on the processing

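The number of members depended most on the adult threshold: 54 islands were below -0.25 and 819 below 0.25 on all adult arrays, in place of 326 at 0. A threshold of 1 in the lines left 213 and 1 of 0.5 gave 430. Requiring both lines left 112 and Min6 alone 179. A robust Z-score gave 174, of which 138 were among the 326. Other settings gave 259 to 404, with 192 shared under normexp and 162 shared in the deposited values, where 208 of the members were scored. Without each adult array in turn the number was 328 to 362.

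In β cells the mean over members was -0.385 to -0.326, except -0.27 with normexp. The number above 0.75 (2) was 4 with a robust Z-score and 1 with normexp, bright inputs or the median of probes. It was 0 in the deposited values. With at least 5 probes it was also 0, but that setting drops both islands, which have 4 probes each. The deposited values scored 208 of the members, and bright inputs or at least 5 probes 280. The 35 members above 0.75 in differentiated cells became 12 in the deposited values, 22 with bright inputs and 21 with at least 5 probes.

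For differentiated cells against embryos (98) the count was 28 with day or version as a block, 3 with slide, 44 in the deposited values, 58 by the methods' t-test, 33 with normexp and 78 to 100 with an array left out. For undifferentiated cells (7) it was 54 in the deposited values, where J1 does not follow its scanner file, 11 with bright inputs, 4 with medians, 3 on the log2 scale, 2 with a robust Z-score or the 2 groups alone, 0 by the t-test, normexp or version block, and 1 to 21 with an array left out. For teratomas (1) it was 5 with the 2 groups alone, 1 with bright inputs, and 0 under all other settings and with any array left out, which ranged from 0 to 0. For differentiated against undifferentiated cells (44) it was 23 on the log2 scale, 26 with a robust Z-score, 26 with the parent line as a replicate block, a choice made after seeing the data, 5 with normexp, 4 with slide as a block, 0 by the t-test or with the 2 groups alone, and 22 to 62 with an array left out. In the deposited values 14 of 208 members were higher there and 40 lower, a split that goes the other way. Of all 5914 islands scored in those values 1399 were called. J1, whose deposited values do not follow its scanner file, is among the undifferentiated arrays there too. Counts over all islands moved too. For differentiated cells against embryos 2954 became 365 with day, 491 with version, 94 with slide, 2070 by the t-test and 798 with normexp. In the deposited values it was 1193 of 5914 islands, beside 44 of 208 members, a similar share. For undifferentiated cells 447 became 74 by the t-test, 9 with normexp and 8 with version. In the deposited values it was 1010 of 5914 islands, beside 54 of 208 members. For teratomas 32 became 453 with the 2 groups alone and 125 by the t-test. For differentiated against undifferentiated cells 811 became 239 on the log2 scale, 184 with slide, 67 with normexp and 0 by the t-test.

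Of the differences of named islands between differentiated cells and embryos, 773 values stayed on their side of the threshold, 45 lost the call and 11 gained it, and none reversed a called direction. Normexp was run on median signals, a choice made after seeing the data, since some files hold no mean input signal. The planned version on mean signals was not run. Slide or scan day as a block could not be fitted for teratomas. For the comparisons with embryos, which have no parent line, a pairing could not be made. No paired analysis was possible because of this and because the groups compared share fewer than 2 replicate numbers given by the labels, apart from that parent line block.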
